A study of Capra hircus with 24 samples.

Results

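The papilla of the primary follicle, the follicle that grows a goat's coarse guard hair, was compared in males between October and June. The 6 libraries are those whose labels give primary follicle, male sex and either month, 3 from October and 3 from June, out of 24 libraries in the series. The October cells are labelled anagen, the phase in which hair grows, and the June cells early anagen, its beginning. All 6 are papilla cells from the skin of cashmere goats (Capra hircus). The labels record no treatment, and no source used here gives genotype or age. Growth stage, season and the occasion on which cells were collected change together between these groups and cannot be told apart. Libraries of primary females and of secondary follicles of males, the follicles that grow cashmere, serve below only to ask whether their October against June difference is another one.

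The dermal papilla is a cluster of specialised fibroblasts enclosed by the hair bulb. Through Wnt activators, BMPs and their antagonists, fibroblast growth factors and insulin-like growth factor it steers the division of the keratinocytes that build the hair. During the growth phase the papilla enlarges and lays down matrix, and the surrounding dermal sheath, which is contractile, both supplies cells to it and helps to pull the follicle up when growth ends.

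Levels below are the deposited values, a normalised expression signal that is not a count. Differences are October minus June on the log2(value + 1) scale, which understates changes of genes at low levels. A gene counts as called where its adjusted p (limma, Benjamini-Hochberg over all genes tested) is under 0.05. The 3 libraries of a group carry biological replicate numbers in the labels, but no source used here says that they came from separate animals or cultures. A p-value therefore speaks only of the spread among libraries, and part of that may be technical. Library totals were 964077 to 973885 in October and 1031229 to 1033249 in June, and how many reads they rest on is not known. Across the 13049 genes tested, which are not independent replicates, libraries correlated within October with a mean r of 0.997 and between October and June with a mean r of 0.971. The October libraries lay closest to those of secondary follicles of October males (mean r 0.992) and less close to those of primary follicles of October females (mean r 0.982). The June libraries had no other group as close. Their highest mean r was 0.974, with primary June females, and it was 0.961 with secondary June males. SOX2, a papilla transcription factor, averaged 14.2 in secondary October males against 0.26 in secondary June males and 0.33 in secondary October females, so by this gene the libraries labelled secondary October male resemble primary cells, where the means were 15.9 in October males and 12.7 in June males. Whether this reflects the cells sampled was not tested, and it touches each comparison with secondary males below. The sex labels were checked on genes of the X chromosome that escape inactivation in many mammals. Of 17 listed sex chromosome genes, 8 had a row and 7 were tested. Only the 3 of them called between the months are given here, so the check is partial. In primary cells EIF2S3, a translation initiation factor, averaged 49.4 and 56.9 in October and June males, against 91.2 and 99.7 in October and June females. USP9X averaged 27.4 and 31.2 in these males, against 38.6 and 36.8 in females. DDX3X was less clear, with 245 and 313 against 304 and 363. In secondary June cells DDX3X was higher in males (270) than in females (254).

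Markers of papilla cells were present only in part. VCAN (versican), RSPO3, SOX2, INHBA and BMP4 were well above 1, while CORIN, PROM1, SOX18 and FRZB did not reach the level for testing and ALPL, the alkaline phosphatase often used to stain papillae, averaged 0.13 in October and 0.08 in June. The summed level of the 29 papilla genes with a row was 967 to 999.9 in October and 1093 to 1167 in June. The 17 dermal sheath and smooth muscle markers summed to 30792 to 31478 in October and 38449 to 38683 in June, led by the actin ACTA2, the tropomyosin TPM1 and the calponin-related TAGLN. The 14 fibroblast markers of the interfollicular dermis summed to 3729 to 3801 in October and 2622 to 2639 in June. The 24 keratinocyte and hair matrix markers summed to 101 to 109 in October and 90.1 to 97.1 in June. In that sum JUP, which mesenchymal cells also express, averaged 11.5 in October and 44.1 in June. It was the 1 member called lower, while 11 of 20 tested members were called higher, so the sums understate their rise. In such bulk RNA, fewer cells of a type and less RNA per cell cannot be told apart, and the part these marker levels have in the results below was not tested.

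October and June papilla cells differed in many genes, mostly by little. Of the 13049 genes tested, 7241 (55.5%) were called, 3393 (26.0%) higher and 3848 (29.5%) lower in October. The levels of 8592 genes (65.8%) did not overlap between the groups. A difference of at least 2-fold as well was found for 670 genes (5.13%), 172 (1.32%) higher and 498 (3.82%) lower, so falls outnumbered rises among large changes. The median difference of all genes was 0.00089, and the quartiles were -0.24 and 0.20. With each library rescaled to the same total, 4601 genes were called higher and 2961 lower, the higher ones making 60.8% of calls in place of 46.9%, and the median of all genes was 0.08.

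**Figure D1:**
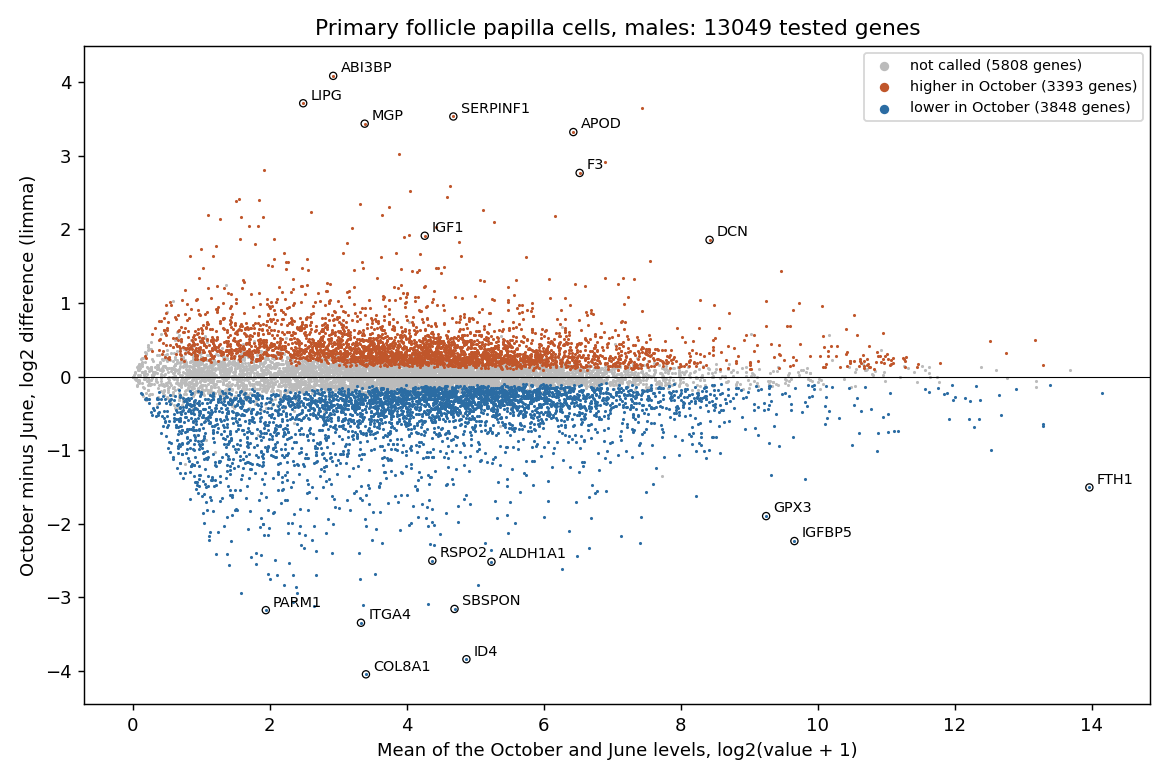
Each point is 1 of 13049 tested genes, with the mean of its October and June levels in primary males (log2(value + 1)) across and the October minus June log2 difference up. Orange points are the 3393 genes called higher and blue points the 3848 called lower in October. Points reach 4.09 (ABI3BP) at the top and -4.05 (COL8A1) at the bottom, and FTH1 lies at the far right, lower in October.

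The 5 largest rises were of genes for secreted proteins. ABI3BP (gene ID 102182911), a matrix protein that binds the ABI3 adaptor, stood at 30.2, 32.2 and 28.4 in the October libraries, against 0.81, 0.69 and 1.04 in the June libraries, a difference of 4.09 (SE 0.09, adjusted p = 2.40e-20). LIPG (gene ID 102191574), the endothelial lipase that cleaves lipoprotein phospholipids, had 18.3, 20.1 and 19.6 in October, against 0.44, 0.58 and 0.63 in June, a difference of 3.71 (SE 0.08, adjusted p = 2.57e-20). SERPINF1 (gene ID 102179233), also known as pigment epithelium-derived factor, a secreted serpin that restrains blood vessel growth, had 86.7, 85.3 and 86.3 in October, against 6.09, 7.55 and 6.01 in June, a difference of 3.53 (SE 0.08, adjusted p = 2.67e-20). In each of these genes every October library lay far above every June library. MGP (gene ID 108636042), the matrix Gla protein that inhibits calcification, had 39.4, 30.8 and 29.2 in October, against 2.78, 2.55 and 1.28 in June, a difference of 3.44 (SE 0.18, adjusted p = 1.92e-13), with the widest spread of these first 5 genes. APOD (gene ID 102181073), a lipid carrier secreted by fibroblasts, had 276, 272 and 268 in October, against 26.4, 25.8 and 26.7 in June, a difference of 3.32 (SE 0.07, adjusted p = 1.00e-20).

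The next 5 rises were those of CDC20B, SMOC1, F3, APOA1 and REC114. F3, tissue factor, which starts blood clotting, was the most abundant of them with 235, 243 and 239 in October, against 33.6, 34.9 and 34.3 in June (2.77 on the log2 scale). CDC20B, a relative of the mitotic regulator CDC20, had 41.6, 41.3 and 40.4 in October, against 4.96, 4.13 and 3.57 in June (3.02). SMOC1, a matricellular protein that antagonises BMP signals, had 9.27, 8.97 and 8.67 in October, against 0.42, 0.27 and 0.61 in June (2.80), so it was hardly above 0 in June. APOA1, the main protein of high-density lipoprotein, averaged 59.9 in October and 9.10 in June (2.59), and REC114, known from meiotic recombination, 5.76 in October and 0.27 in June (2.42). Behind them came PMCH, the precursor of melanin-concentrating hormone (2.39), the guidance cue SEMA3D (2.39), TAC1, the substance P precursor (2.34), LRRC15, a membrane protein of activated fibroblasts (2.31), and LCTL, a lactase-like protein of the klotho family (2.26). PMCH was the least even of the 15, at 4.84, 8.32 and 8.49 in October, against 1.14, 0.32 and 0.26 in June, still without overlap. In SERPINF1 the rise was larger in secondary males (3.86, test of the difference -0.32, adjusted p = 0.0173).

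The 3 largest falls were of a collagen, a BMP target and an integrin chain. COL8A1 (gene ID 102175894), a short-chain collagen of basement membranes, stood at 1.75, 1.33 and 1.75 in the October libraries, against 43.1, 42.8 and 40.02 in the June libraries, a difference of -4.05 (SE 0.08, adjusted p = 1.55e-20). ID4 (gene ID 108633532), a helix-loop-helix inhibitor induced by BMPs, had 6.21, 7.42 and 6.59 in October, against 110.5, 116 and 103 in June, a difference of -3.84 (SE 0.06, adjusted p = 5.84e-22). ITGA4 (gene ID 102183190), the integrin alpha 4 chain that binds fibronectin and VCAM1, had 2.09, 2.26 and 2.13 in October, against 32.4, 30.7 and 30.2 in June, a difference of -3.34 (SE 0.09, adjusted p = 4.22e-18). October libraries held these genes at low but measurable levels. PARM1, a mucin-like membrane protein, had 0.27, 0.25 and 0.32 in October, against 11.4, 10.2 and 10.1 in June (-3.17), and SBSPON, a matrix protein with somatomedin and thrombospondin domains, had 7.04, 8.17 and 7.83 in October, against 77.7, 83.95 and 68.2 in June (-3.16). SBSPON differed by 0.42 in primary females and 0.95 in secondary males, the opposite direction. In secondary females, a group not compared by test here, SBSPON was lower in October too, averaging 4.32 against 17.2 in June. Primary June males had the highest SBSPON mean of all groups, 76.6, and secondary June females came next.

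The other 10 of the 15 largest falls were of genes with varied roles. The neural adhesion molecules CNTN1 (contactin 1) and L1CAM averaged 1.14 and 11.3 in October, against 17.4 and 86.5 in June (-3.11 and -2.84). SPARCL1, a matricellular relative of osteonectin, averaged 5.84 in October and 56.97 in June (-3.08), and the cadherin CDH6 0.74 in October and 11.4 in June (-2.83). FRMD3, a protein with a FERM domain that links membrane and cytoskeleton, fell by 3.06, the mitochondrial short-chain acyl-CoA synthetase ACSS3 by 2.94, and the lysosome-linked glycoprotein GPNMB by 2.75. CHRM2, the muscarinic acetylcholine receptor M2, had 2.83, 2.83 and 2.83 in October, against 23.5, 23.2 and 27.6 in June (-2.75). SHMT1, the cytosolic enzyme that moves a carbon unit from serine to folate, averaged 0.99 in October and 11.8 in June (-2.70), and the adaptor STAC2 1.53 in October and 15.3 in June (-2.69). In secondary males GPNMB and STAC2 differed by -2.60 and -2.42, and the tests of the difference were not called (adjusted p = 0.243 and 0.0882). GPNMB averaged 0.55 in October and 9.41 in June in primary males, and 14.6 and 94.0 in secondary males. The log2(value + 1) scale understates its fall at the low October level of primary males.

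**Figure D2:**
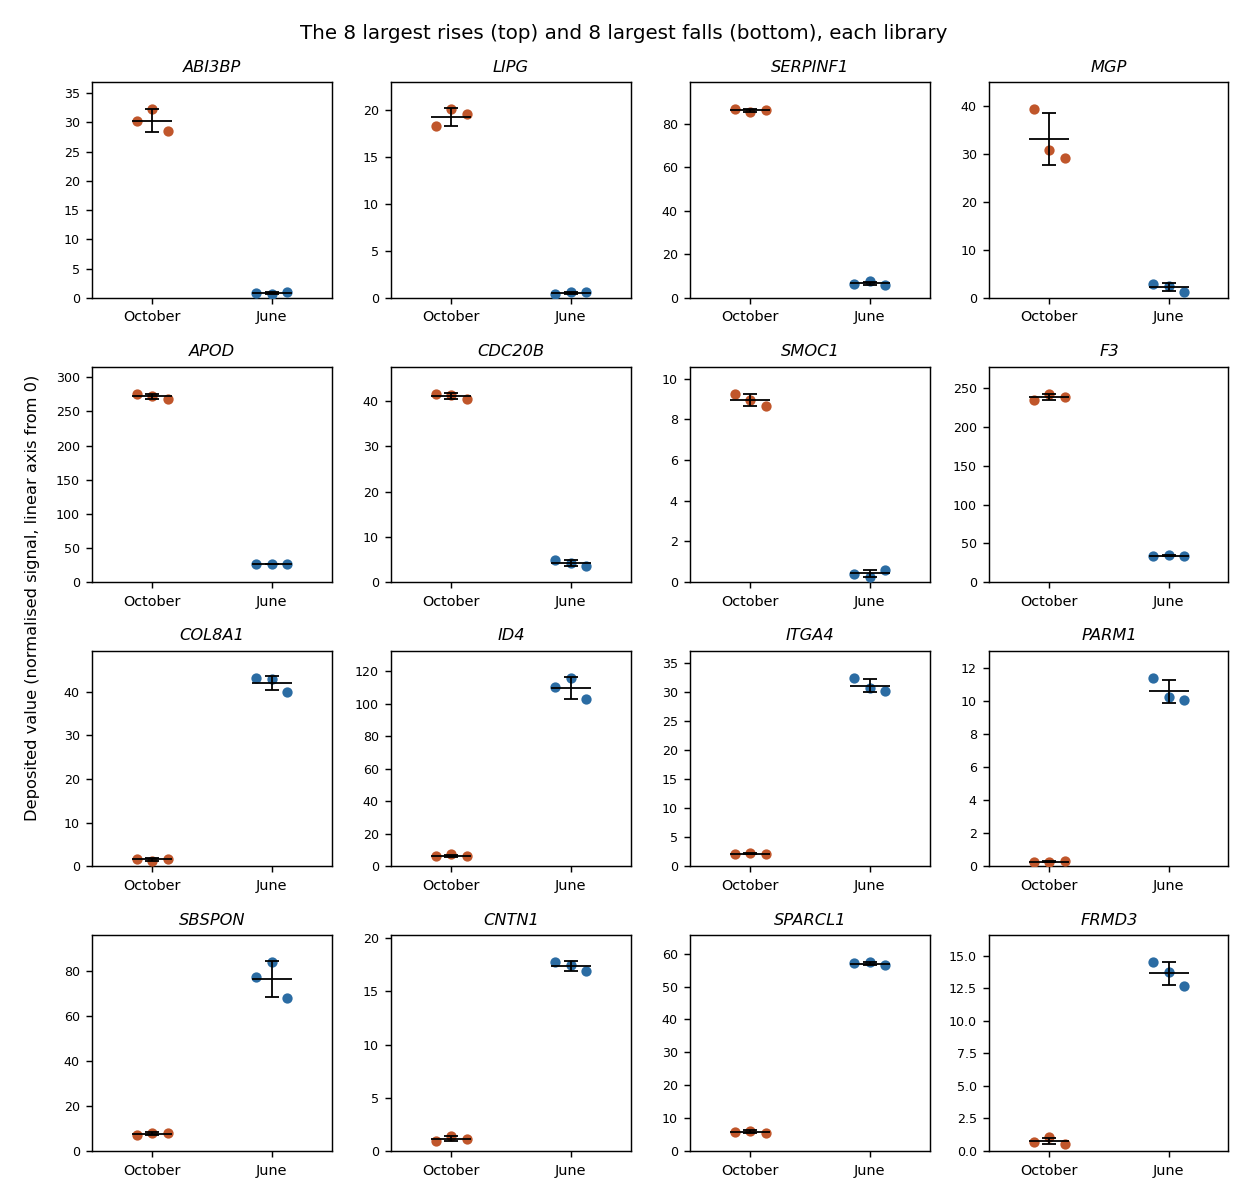
Deposited levels (linear axes from 0) of the 8 genes with the largest rise and the 8 with the largest fall, October left of June. Dots are the 3 libraries of each group, and bars the mean and SD. In all 16 genes the groups lie apart, for example APOD at 272 on average in October and 26.3 in June.

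Beyond single genes, 55 lists of pathway genes and cell type markers were counted, 1172 distinct genes tested, and each is read against the 26.0% of all genes called higher and 29.5% called lower.

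Cell division genes were higher in October. Of 40 tested genes of mitosis and G2/M, 37 were called higher and 0 lower by limma (38 and 0 at an unadjusted p under 0.05), with a median of 0.62. Of 39 genes of DNA replication and G1/S, 36 were higher and 2 lower, with a median of 0.69. CDC20, which activates the anaphase-promoting complex, had 18.8, 17.6 and 18.3 in October, against 8.45, 8.35 and 8.34 in June, a difference of 1.04 (SE 0.06, adjusted p = 4.05e-12). PRC1, which bundles microtubules of the spindle midzone, had 21.5, 20.9 and 22.2 in October, against 9.34, 10.8 and 10.2 in June (1.02 (SE 0.06)), and the cyclins CCNA2 and CCNB1 rose by 0.90 and 0.70. In none of these did the groups overlap. MCM4, a subunit of the replicative helicase, averaged 20.9 in October and 10.4 in June (0.94), GINS2, of the same helicase, 5.72 in October and 1.90 in June (1.21), and UHRF1, which carries DNA methylation through replication, 7.68 in October and 3.45 in June (0.96).

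Against that, the G1 cyclin CCND1 fell, with 52.7, 55.1 and 52.9 in October, against 119, 129 and 134 in June, a difference of -1.23 (SE 0.06, adjusted p = 1.44e-14). Of 24 cell cycle inhibitors, p53 targets and senescence genes, 17 were lower and 2 higher (median -0.38). CDKN1A, the p21 inhibitor of cyclin-dependent kinases, had 206, 206 and 217 in October, against 416, 438 and 416 in June (-1.01 (SE 0.05)). GDF15, a stress-induced cytokine of the TGF-beta family, had 13.96, 11.2 and 12.6 in October, against 45.8, 56.2 and 54.6 in June (-1.97 (SE 0.10)), and BTG2, an antiproliferative p53 target, averaged 25.1 in October and 55.5 in June (-1.11). LMNB1, the lamin that is lost from senescent cells, was one of the 2 that rose, with 20.2, 23.00 and 20.5 in October, against 8.21, 8.45 and 9.29 in June (1.20 (SE 0.06)).

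**Figure D3:**
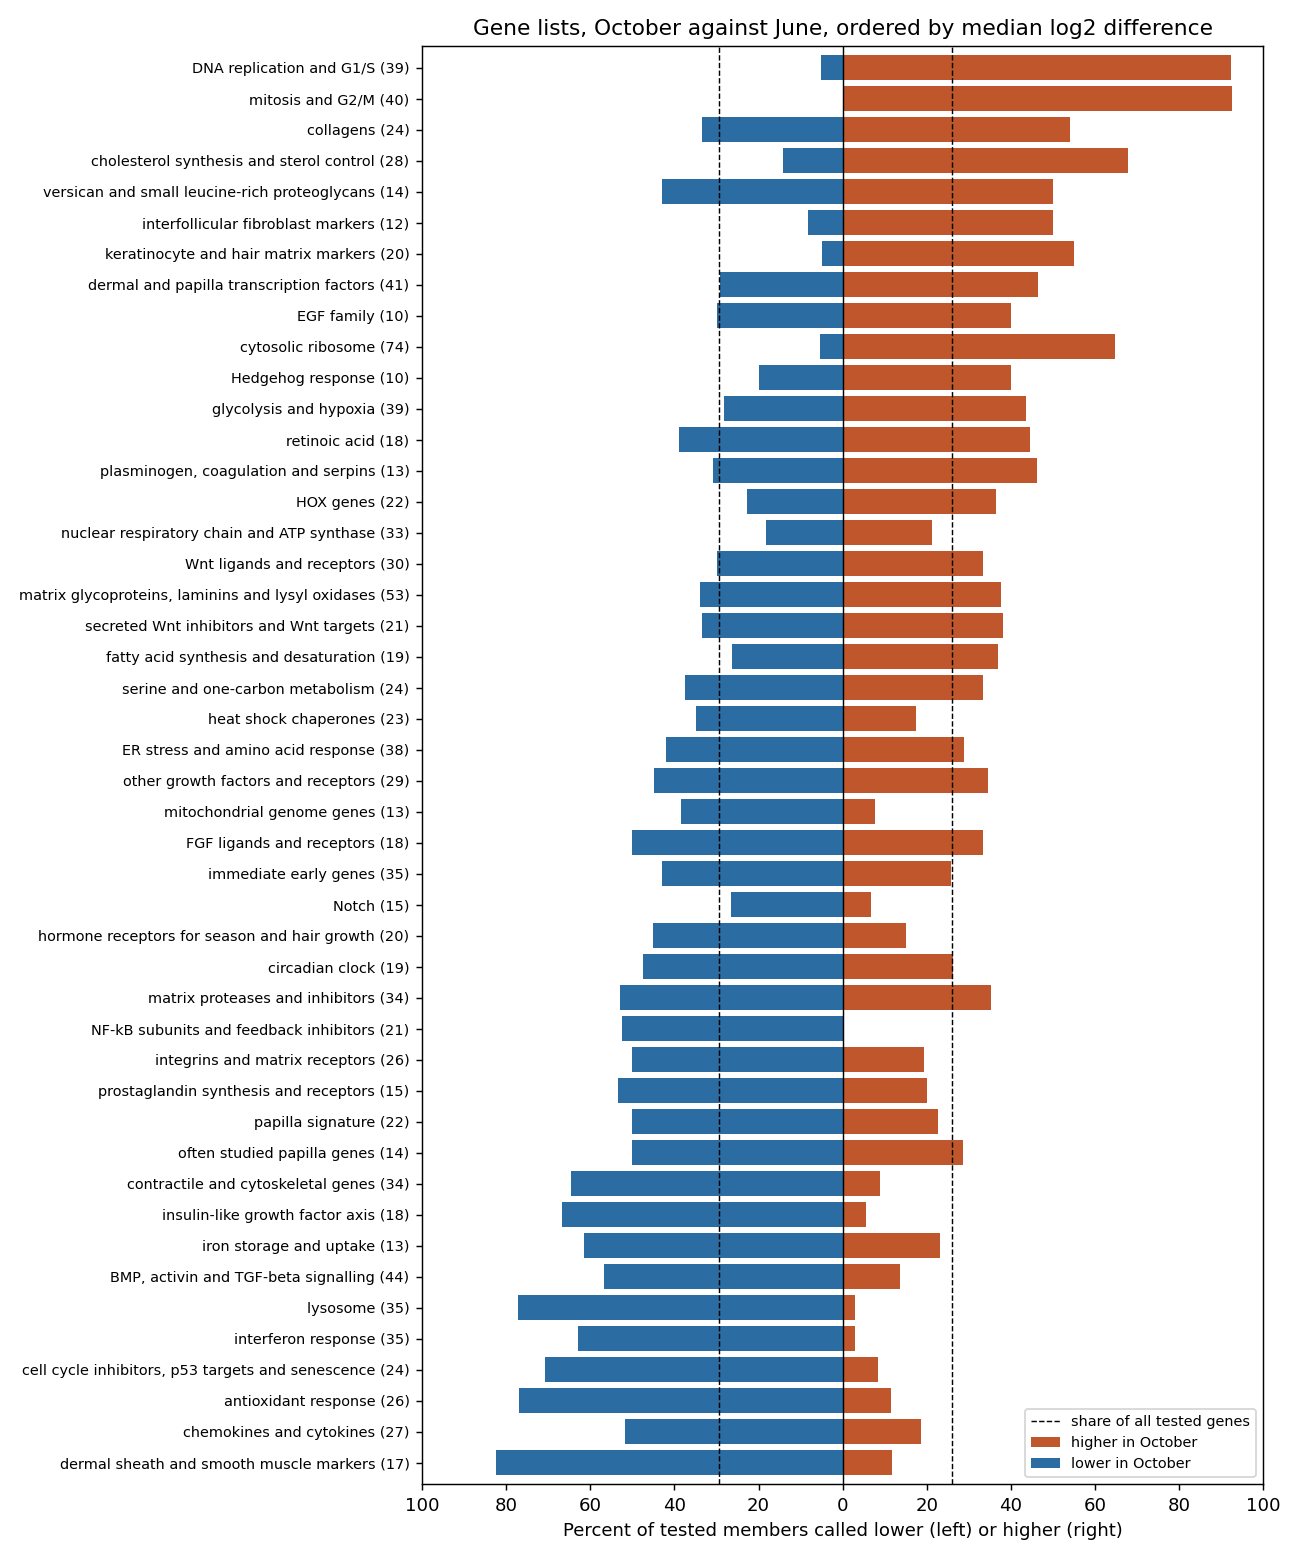
For each gene list with at least 10 tested members (number in brackets), the percent of members called higher (orange, right) or lower (blue, left) in October, ordered by median difference, with dashed lines at the shares of all genes, 26.0% and 29.5%. The 2 cell division lists stand at the top with over 90% higher, and dermal sheath, antioxidant and lysosome genes near the bottom with over 75% lower.

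Collagen genes moved both ways. Of 24 collagens, 13 were called higher and 8 lower (median 0.37). COL14A1, which decorates collagen fibrils, had 134, 136 and 138 in October, against 55.7, 54.6 and 57.5 in June (1.26 (SE 0.04)). COL4A1, a basement membrane collagen, had 219, 221 and 230.0 in October, against 480.0, 499 and 470.0 in June (-1.11 (SE 0.05)), and COL15A1, which lies next to basement membranes, had 81.4, 82.5 and 87.1 in October, against 149.9, 138 and 138 in June (-0.75 (SE 0.04)). Both thus stood lower in every October library, as COL8A1 did. Members outside the naming rule, chosen here after their values were seen, were the abundant COL3A1 (0.49), COL6A1 (0.59) and COL6A2 (0.65), all higher, and COL4A2 (-0.78), lower, while COL1A1 (0.09, adjusted p = 0.322) and COL1A2 (-0.02, adjusted p = 0.733) were not called.

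The small leucine-rich proteoglycans, which bind collagen and set fibril width, had 7 of 14 higher and 6 lower (median 0.27). DCN, decorin, had 654, 669 and 632 in October, against 180.1, 180.0 and 177 in June, a difference of 1.86 (SE 0.04, adjusted p = 1.20e-19). FMOD, fibromodulin, had 321, 320.4 and 329 in October, against 111, 108 and 104 in June (1.57 (SE 0.04)), and BGN, biglycan, 936, 950.4 and 975 in October, against 620.2, 586 and 567 in June (0.69 (SE 0.05)). The rises were clear of any overlap. In primary females these 3 genes differed by -0.37, -0.00 and -0.57, and each of the 3 tests of the difference was called. Primary June males had the lowest DCN mean of all groups, 179. The other means ran from 545 (secondary June females) to 1302 (secondary October females). PRELP averaged 55.9 in October and 34.9 in June (0.66). VCAN, the large proteoglycan of the growing papilla, was slightly lower, with 209, 217 and 206 in October, against 253, 235 and 252 in June (-0.22 (SE 0.05), adjusted p = 9.55e-04). Matrix glycoproteins, laminins and lysyl oxidases as a whole were divided, with 20 of 53 higher and 18 lower (median 0.06); besides ABI3BP and SPARCL1, WISP1, a matricellular CCN protein, averaged 93.3 in October and 29.6 in June (1.62) and periostin, POSTN, 252 in October and 99.8 in June (1.33).

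Enzymes that cut matrix were also divided, with 12 of 34 proteases and inhibitors higher and 18 lower (median -0.14). TIMP3, an inhibitor of metalloproteinases that stays bound to matrix, fell to 401, 399 and 403 in October, against 1004, 1014 and 1030.2 in June (-1.34 (SE 0.04)). The versican-cleaving proteases went opposite ways: ADAMTS1 had 50.98, 53.4 and 50.9 in October, against 191, 197 and 211 in June (-1.93 (SE 0.04)), and ADAMTS4 15.3, 15.5 and 15.3 in October, against 3.39, 3.73 and 3.91 in June (1.81 (SE 0.07)). ADAMTS6 rose by 1.06. Of 13 plasminogen, coagulation and serpin genes, 6 were higher and 4 lower, with F3 and SERPINF1 above, the urokinase receptor PLAUR (0.91) and, lower, SERPINE2, protease nexin-1 (-1.68). Fibroblast markers of the interfollicular dermis, which share DCN and COL14A1 with these lists, had 6 of 12 higher and 1 lower (median 0.27), the 1 not called without the first October library or on rescaling; the microfibril protein MFAP5 had 1084, 1100.3 and 1078 in October, against 571, 571 and 594 in June (0.91 (SE 0.04)) and the peptidase DPP4 19.2, 17.5 and 16.8 in October, against 6.69, 5.60 and 6.95 in June (1.35 (SE 0.08)). CD34, a defining marker in that list, was at 0 or under 0.1 in both groups.

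Contractile genes were lower in October. Of 17 dermal sheath and smooth muscle markers, 14 were called lower and 2 higher (median -0.57), and no marker of the list was near 0 in either month. Their mean sum in primary June males, 38600, was the highest of all groups. That of primary October males, 31151, lay within the range of the others, 23055.5 (secondary June males) to 34220 (secondary October males). MYLK, the kinase that switches on smooth muscle myosin, had 448, 474 and 444 in October, against 892, 822 and 839.7 in June (-0.90 (SE 0.06)). ITGA8, an integrin chain of myofibroblasts, had 172, 171 and 173 in October, against 360.1, 354 and 370.2 in June (-1.07 (SE 0.04)), and SYNPO2, an actin-bundling protein, 10.2, 9.85 and 10.04 in October, against 22.6, 20.5 and 23.2 in June (-1.06 (SE 0.05)). ACTA2, smooth muscle actin, averaged 5479 in October and 7834 in June (-0.52), and the intermediate filament protein SYNM 20.5 in October and 35.9 in June (-0.78). TPM1, the most abundant marker in October, went the other way with 10965, 11049.7 and 10909 in October, against 7663, 7669 and 8026 in June (0.50 (SE 0.04)). The desmin gene DES was called (-0.20, adjusted p = 0.0252) but lost its call when any 1 of 4 libraries was left out and when libraries were rescaled to the same total.

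The wider contractile and cytoskeletal list had 22 of 34 lower and 3 higher (median -0.25). VCL, vinculin, which ties integrins to actin, had 381, 384 and 379.5 in October, against 636, 606 and 630.2 in June (-0.71 (SE 0.04)), and MYH10, non-muscle myosin IIB, 258, 265 and 269 in October, against 470.2, 461 and 469 in June (-0.82 (SE 0.04)). CTGF, a secreted CCN protein and target of the YAP coactivator, had 1701, 1701 and 1707 in October, against 2829, 2899.6 and 2836 in June (-0.74 (SE 0.03)). CSRP2, a LIM protein of smooth muscle, was one of the 3 that rose (502 in October and 255 in June, 0.97). Integrins and matrix receptors had 13 of 26 lower and 5 higher (median -0.17). Besides ITGA4 and ITGA8, ITGB1, the beta 1 chain shared by most matrix integrins, fell to 1313, 1326 and 1303 in October, against 2626, 2612 and 2742 in June (-1.02 (SE 0.04)), and CD44, the hyaluronan receptor, averaged 79.9 in October and 173 in June (-1.10).

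Lysosome, iron and antioxidant genes were mostly lower in October. Of 35 lysosome genes, 27 were called lower and 1 higher (median -0.35), the 1 losing its call without the second or the third June or the second October library. NPC2, which hands cholesterol out of the lysosome, had 226, 228 and 228 in October, against 441, 462 and 478 in June (-1.01 (SE 0.05)), and the cathepsins CTSK and CTSH averaged 123 and 69.6 in October, against 230.2 and 129 in June (-0.90 and -0.88). The iron list had 8 of 13 lower and 3 higher (median -0.32). FTH1, the ferritin heavy chain that stores iron, was among the most abundant genes, with 9633, 9514 and 9309 in October, against 26587, 27029 and 27206 in June, a difference of -1.51 (SE 0.05, adjusted p = 8.05e-17). FTL, the light chain, had 4168, 4146 and 4192 in October, against 8279, 8421 and 8165 in June (-0.99 (SE 0.05)), and SLC40A1, ferroportin, the only known iron exporter of mammalian cells, 32.9, 34.4 and 32.6 in October, against 96.3, 93.8 and 93.2 in June (-1.48 (SE 0.06)). HMOX1, which frees iron from heme, rose, with 196, 191 and 177 in October, against 74.5, 70.3 and 75.1 in June (1.35 (SE 0.06)). Ferritin genes have many processed copies in mammalian genomes, so their values rest on how reads shared with those copies were assigned.

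Of 26 antioxidant genes, 20 were lower and 3 higher (median -0.39). GPX3, the secreted glutathione peroxidase, had 314, 306 and 321 in October, against 1115, 1149 and 1249 in June (-1.90 (SE 0.05)). Catalase, CAT, had 8.09, 8.64 and 10.2 in October, against 36.2, 39.3 and 34.5 in June (-1.92 (SE 0.06)), and GSTM3, a glutathione transferase, 107, 103 and 100.5 in October, against 307, 301 and 315 in June (-1.56 (SE 0.05)). The sulfiredoxin SRXN1 averaged 76.4 in October and 138 in June (-0.84). GPX3 and CAT did not fall in primary females, where they differed by 0.33 and 0.28, and the tests of that difference were called.

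Interferon, NF-kB and cytokine genes were lower in October as well. Of 35 tested interferon response genes, 22 were called lower and 1 higher (median -0.37). IFIH1, the sensor of long double-stranded RNA, had 4.96, 4.51 and 5.07 in October, against 12.5, 10.2 and 10.7 in June (-1.05 (SE 0.07)), IFI44L 5.58, 5.25 and 5.48 in October, against 13.03, 14.2 and 14.5 in June (-1.21 (SE 0.09)), and IFI6, the most abundant of the 4 named, 242, 226 and 238 in October, against 415, 413 and 422 in June (-0.82 (SE 0.07)). PARP12 averaged 1.99 in October and 5.04 in June (-1.01). Of 21 NF-kB subunits and feedback inhibitors, limma called 0 higher and 11 lower (0 and 12 at an unadjusted p under 0.05, median -0.15). The adhesion molecule ICAM1, an NF-kB target, had 0.99, 0.84 and 0.75 in October, against 8.19, 7.34 and 6.28 in June (-2.15 (SE 0.09)), and the deubiquitinase CYLD, the NF-kB inhibitor TNIP1 and the TNF-induced TNFAIP2 fell by 0.74, 0.44 and 0.66.

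Of 27 tested chemokines, cytokines and their receptors, 14 were lower and 5 higher (median -0.47). CXCL8, a neutrophil attractant, had 1.17, 1.75 and 1.56 in October, against 10.4, 11.5 and 11.6 in June (-2.29 (SE 0.12)), a fall smaller than in primary females (-3.79) and secondary males (-5.39). The scavenger receptor ACKR3 averaged 57.1 in October and 83.99 in June (-0.55). IL15 rose, with 6.97, 7.50 and 5.57 in October, against 1.94, 2.61 and 2.51 in June (1.19 (SE 0.11)), and so did IL6, with 9.13, 13.4 and 14.6 in October, against 6.42, 5.72 and 4.82 in June (0.99 (SE 0.15)), whereas IL6R, the receptor chain of the same cytokine, fell by 0.98. The prostaglandin list had 8 of 15 lower and 3 higher (median -0.23). The 3 that rose code for enzymes that release or convert arachidonic acid or, for PTGES (0.27, named after its value was seen), make prostaglandin E2. PLA2G4A, cytosolic phospholipase A2, had 38.1, 38.8 and 37.1 in October, against 12.8, 12.1 and 13.9 in June (1.49 (SE 0.06)), and PTGS2, cyclooxygenase 2, 39.8, 40.7 and 37.9 in October, against 17.9, 18.2 and 19.1 in June (1.06 (SE 0.06)). The prostaglandin transporters SLCO2A1 and ABCC4 fell by 1.40 and 0.88. Immune cell markers were near absent: PTPRC, ITGAM, MS4A1, MRC1 and CD2 were at 0 or under 0.1 in both months, and the 14 markers summed to 14.9 to 17.1 in October and 19.4 to 23.8 in June.

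BMP signalling genes were mostly lower in October, led by direct targets. Of 44 tested genes of BMP, activin and TGF-beta signalling, 25 were lower and 6 higher (median -0.32), 8 of the falls being at least 2-fold. The ligand BMP4, the main BMP of the papilla, rose, with 101, 99.6 and 109.7 in October, against 77.8, 72.5 and 78.8 in June (0.43 (SE 0.08), adjusted p = 1.02e-04), and INHBA, the activin A subunit, fell, with 257, 274 and 257 in October, against 346, 308 and 339.9 in June (-0.33 (SE 0.05)). Of receptors, ACVRL1, ALK1, which binds BMP9, had 0.10, 0.18 and 0.19 in October, against 2.61, 2.73 and 3.00 in June (-1.71 (SE 0.08)). NOG, the secreted antagonist noggin, was low, with 1.18, 0.92 and 1.48 in October, against 4.60, 3.76 and 3.46 in June (-1.17 (SE 0.14)). Among targets, ID3 had 31.2, 29.99 and 35.4 in October, against 125, 119.9 and 123 in June (-1.90 (SE 0.07)), besides ID4, and BAMBI, a decoy receptor that BMPs induce, 2.12, 1.77 and 1.57 in October, against 12.5, 14.3 and 13.96 in June (-2.37 (SE 0.09)). The groups did not overlap in any of these genes. ID3 fell to about the same extent in primary females (-1.95, test of the difference 0.05, adjusted p = 0.741), while BAMBI there differed by -0.20 (test of the difference -2.18, adjusted p = 3.50e-12).

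Wnt genes had no common direction: of 30 ligands and receptors, 10 were higher and 9 lower (median 0.06), and of 21 secreted inhibitors and targets, 8 and 7 (median 0.04). The R-spondins, papilla signals that strengthen Wnt responses, fell: RSPO2 had 7.83, 7.68 and 7.63 in October, against 49.5, 47.4 and 48.1 in June, a difference of -2.50 (SE 0.06, adjusted p = 2.66e-19), and RSPO3 177, 183 and 178 in October, against 241, 230.2 and 241 in June (-0.40 (SE 0.04)). RSPO2 was thus far lower in every October library, and it differed by 0.25 in primary females and -0.41 in secondary males. Primary June males stood apart in this gene, with a mean of 48.3. All other groups, of either month, had means from 5.88 (secondary October females) to 9.93 (secondary June females), and primary October males had 7.71. Of the frizzled receptors, FZD1 had 216, 218 and 221 in October, against 101, 106 and 101 in June (1.08 (SE 0.04)), and FZD6 and FZD8 fell by 1.33 and 1.10. AXIN2, the feedback inhibitor used as a readout of beta-catenin, had 3.09, 3.07 and 2.83 in October, against 0.39, 0.22 and 0.23 in June (1.64 (SE 0.09)). Another target that inhibits Wnt, APCDD1, had 3.47, 3.35 and 3.46 in October, against 9.50, 10.5 and 9.52 in June (-1.29 (SE 0.08)), so these 2 targets went opposite ways. The inhibitor WIF1 averaged 3.60 in October and 1.86 in June (0.70), the transcription factor LEF1 9.55 in October and 13.6 in June (-0.47) and PRICKLE1, of planar cell polarity, 49.4 in October and 26.6 in June (0.87).

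**Figure D4:**
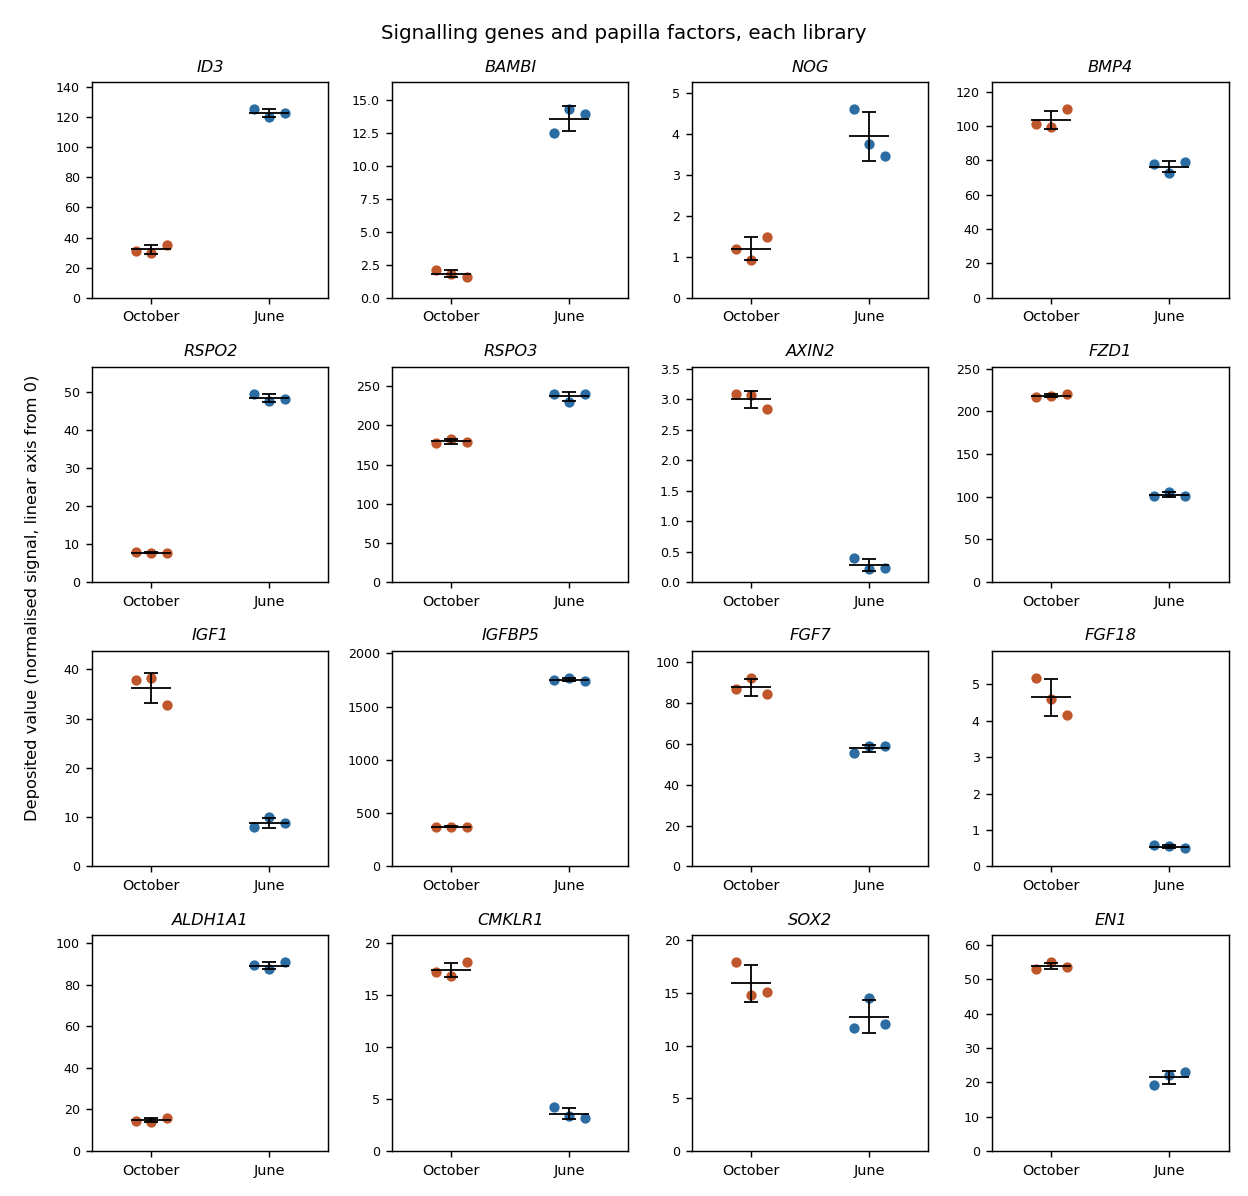
Deposited levels (linear axes from 0) of 16 signalling genes and papilla factors, October left of June, with the 3 libraries of each group as dots and bars for the mean and SD. ID3, BAMBI, NOG, RSPO2, IGFBP5 and ALDH1A1 lie lower in October, AXIN2, FZD1, IGF1, FGF18, CMKLR1 and EN1 higher, and the highest June library of SOX2 lies just under the lowest October library.

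In the insulin-like growth factor axis 12 of 18 genes were lower and 1 higher (median -0.27). The 1 that rose was IGF1 itself, a papilla signal that prolongs hair growth, with 37.8, 38.3 and 32.7 in October, against 7.96, 9.96 and 8.78 in June, a difference of 1.91 (SE 0.09, adjusted p = 7.69e-14). The binding proteins that hold the ligand fell: IGFBP5 had 366, 375 and 374 in October, against 1748, 1769 and 1742 in June, a difference of -2.23 (SE 0.03, adjusted p = 1.44e-22), IGFBP6 1057, 1025 and 1053 in October, against 1973, 2048 and 1934 in June (-0.92 (SE 0.05)), and IGFBP3 31.1, 29.1 and 27.4 in October, against 59.4, 63.1 and 58.5 in June (-1.02 (SE 0.06)). None of the 4 shared its direction and size with primary females, where they differed by -0.80, 0.35, 0.07 and -0.32, and all 4 tests of the difference were called. In secondary males IGF1 rose further (2.35).

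Fibroblast growth factor genes had 6 of 18 higher and 9 lower, and their median of -0.06 turned to 0.02 when libraries were rescaled to the same total. FGF7, the keratinocyte growth factor, had 86.5, 92.1 and 84.1 in October, against 55.6, 58.8 and 58.8 in June (0.59 (SE 0.09)), and FGF18, known in mice for holding follicles in rest, 5.17, 4.60 and 4.16 in October, against 0.58, 0.56 and 0.50 in June (1.86 (SE 0.10)). FGF2 fell, with 13.3, 12.6 and 14.5 in October, against 40.4, 39.6 and 36.7 in June (-1.46 (SE 0.10)), as did FGF10 (-0.41) and the feedback inhibitors SPRY2 (-0.67) and SPRED2 (-0.42). In the EGF family, with 4 of 10 higher and 3 lower (median 0.18), EGFR averaged 14.5 in October and 9.02 in June (0.63), its inhibitors LRIG1 and LRIG3 rose by 1.12 and 0.98, and the ligand HBEGF fell by 0.70. Other growth factors and receptors had 10 of 29 higher and 13 lower, with a median of -0.04 that turned to 0.04 on rescaling. ANGPTL2, an angiopoietin-like protein, had 226, 225 and 224 in October, against 89.9, 88.2 and 87.3 in June (1.34 (SE 0.06)), PDGFD 5.93, 6.63 and 6.06 in October, against 19.2, 20.03 and 18.8 in June (-1.50 (SE 0.10)), and the macrophage growth factor CSF1 averaged 58.96 in October and 109.6 in June (-0.88).

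Transcription factors of the dermis and papilla rose more often than they fell, 19 of 41 against 12 (median 0.18). EN1, which in mice marks fibroblasts of the dorsal dermis, had 53.01, 54.9 and 53.7 in October, against 19.1, 22.2 and 22.9 in June (1.30 (SE 0.06)). TWIST2, a dermal helix-loop-helix factor, had 36.4, 33.6 and 36.8 in October, against 13.1, 11.4 and 12.04 in June (1.47 (SE 0.06)), and MSX2 37.2, 38.3 and 34.8 in October, against 17.3, 17.3 and 16.1 in June (1.08 (SE 0.06)). TBX3 fell, with 5.43, 5.63 and 5.31 in October, against 16.6, 17.8 and 16.7 in June (-1.48 (SE 0.05)). TRPS1, mutated in a human syndrome with sparse hair, averaged 6.06 in October and 11.2 in June (-0.79). The papilla signature as a whole had 5 of 22 tested genes higher and 11 lower (median -0.24), and the genes most often studied in papilla cells 4 of 14 higher and 7 lower. SOX2 had 17.9, 14.8 and 15.04 in October, against 11.6, 14.5 and 12.1 in June (0.30 (SE 0.14), adjusted p = 0.0766) and was not called, although the groups did not overlap. It was called without the second June library (0.39, adjusted p = 0.0406), with the 6 libraries fitted alone (0.30, adjusted p = 0.0186) and after rescaling to the same total (0.38, adjusted p = 0.0231). HEY1, a Notch target, was not called either (-0.27, adjusted p = 0.166), but was without the first October library (-0.42, adjusted p = 0.0478).

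The retinoic acid list was divided and had 8 of 18 higher and 7 lower (median 0.07). ALDH1A1 (gene ID 102171605), which makes retinoic acid, had 14.5, 13.98 and 15.9 in October, against 89.2, 87.5 and 90.7 in June, a difference of -2.52 (SE 0.09, adjusted p = 5.94e-16), and ALDH1A3, another enzyme of this step, 0.98, 0.80 and 0.85 in October, against 5.95, 5.92 and 6.38 in June (-1.92 (SE 0.08)). RARB, a receptor that is itself induced by retinoic acid, averaged 4.39 in October and 10.9 in June (-1.14). CMKLR1, the receptor of the retinoid-induced protein chemerin, had 17.3, 16.8 and 18.2 in October, against 4.18, 3.40 and 3.15 in June (2.01 (SE 0.08)). In primary females ALDH1A1 differed by 0.34, the opposite direction (test of the difference -2.85, adjusted p = 7.47e-14). Notch genes had 4 of 15 lower and 1 higher (0 without the first June and 2 without the second October library, and 4 each way when libraries were rescaled to the same total). The lower ones included the ligand JAG1 (-0.41), the receptor NOTCH2 (-0.29) and the nuclear mediator RBPJ (-0.36). Hedgehog genes had 4 of 10 higher and 2 lower (1 without the third June library or on rescaling), with the transcription factor GLI2 (0.77), the coreceptors GAS1 (0.55) and CDON (0.42), and the inhibitor SUFU (-0.30). HOX genes, which record position along the body, had 8 of 22 higher and 5 lower with no difference beyond 0.54, from HOXB6 at 0.47 and HOXC9 at -0.41 to HOXB2 at -0.49. The 8 became 5 without the second or the third June library or the first or second October library.

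Cholesterol synthesis genes rose, 19 of 28 against 4 lower (median 0.33). HMGCS1, which makes HMG-CoA, had 78.2, 80.5 and 78.3 in October, against 38.7, 35.2 and 43.3 in June (1.00 (SE 0.05)), SQLE, the squalene epoxidase, 22.5, 24.99 and 24.6 in October, against 12.4, 12.97 and 12.1 in June (0.89 (SE 0.05)), and LSS, which closes the sterol rings, 12.9, 13.7 and 13.3 in October, against 4.75, 5.90 and 4.86 in June (1.22 (SE 0.08)). TM7SF2, a sterol reductase later in the pathway, fell (3.36 in October and 9.32 in June, -1.25). Fatty acid genes were divided, with 7 of 19 higher and 5 lower (median 0.01): the desaturase SCD had 28.2, 29.2 and 29.00 in October, against 10.7, 9.22 and 10.1 in June (1.44 (SE 0.07)), its relative SCD5 averaged 9.12 in October and 18.96 in June (-0.98), FADS1 16.7 in October and 10.02 in June (0.68) and the acetyl-CoA synthetase ACSS2 3.48 in October and 8.05 in June (-1.02).

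Cytosolic ribosomal proteins rose by small amounts, 48 of 74 against 4 lower (median 0.17), with 2 lower without the third June or the first October library and 1 on rescaling. RPL3 had 1439, 1407 and 1483 in October, against 1095, 1076 and 1073 in June (0.42 (SE 0.05)) and RPL24 averaged 1251 in October and 944 in June (0.41); RPL9 had the largest rise (0.86) and RPS2 the largest fall (-0.54). Such genes have near-identical processed copies, which can take or give reads. Nuclear genes of the respiratory chain were little changed, 7 of 33 higher and 6 lower, both under the shares of all genes; after rescaling to the same total the counts were 14 and 3. NDUFS1, a complex I subunit, averaged 45.9 in October and 56.04 in June (-0.28), and NDUFS3, another, 96.2 in October and 80.9 in June (0.25). The 13 protein genes of the mitochondrial genome made up 9.53% ± 0.18 of the signal in October and 9.25% ± 0.31 in June (SD, n = 3 each), a difference of 0.28 percentage points that an exact two-sided permutation test did not call (p = 0.3, where 3 libraries against 3 cannot go below 0.1). Among them COX1 had 16846, 17307 and 16216 in October, against 20136, 18865 and 19986 in June (-0.23 (SE 0.05)) and ND3 6858, 8224 and 8103 in October, against 6584, 5354 and 6596 in June (0.32 (SE 0.09)), and the list median of -0.05 turned to 0.03 on rescaling.

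Immediate early genes, switched on rapidly by growth factors and by handling of cells, were divided, with 9 of 35 higher and 15 lower; their median of -0.08 turned to 0.0040 on rescaling. FOS had 121, 121 and 119.5 in October, against 242, 256 and 246 in June (-1.04 (SE 0.04)), JUNB 136, 138 and 140.4 in October, against 251, 273 and 269 in June (-0.93 (SE 0.07)), and ZFP36, which destabilises cytokine transcripts, 65.3, 65.2 and 62.1 in October, against 119.6, 123 and 116 in June (-0.89 (SE 0.05)). All 3 were lower in October, as was PHLDA1 (-1.26). In primary females limma called 0 genes of this list higher and 31 lower, the same counts at an unadjusted p under 0.05 (median -1.02), and by test 30 of 35 fell less, or rose more, in primary males. The glycolysis and hypoxia list had 17 of 39 higher and 11 lower (median 0.10), with 7 lower without the third June library and 23 higher and 4 lower after rescaling to the same total. ADM, adrenomedullin, a vasodilator peptide induced by low oxygen, had 1485, 1488 and 1511 in October, against 732, 771 and 801 in June (0.96 (SE 0.05)), PFKFB3, which drives glycolysis, 67.3, 67.2 and 67.95 in October, against 37.8, 39.6 and 38.7 in June (0.79 (SE 0.05)), and EPAS1, the HIF-2 alpha factor itself, 318, 325 and 317 in October, against 496, 475 and 503 in June (-0.62 (SE 0.05)). The carbonic anhydrase CA12 averaged 24.5 in October and 15.8 in June (0.60).

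The ER stress and amino acid response list had 11 of 38 higher and 16 lower, with a median of -0.03 that turned to 0.06 on rescaling; the 11 became 6 without the first June library and 7 without the second June or the second October library. The lipoprotein receptor VLDLR, the amino acid carrier SLC38A2 and the cystine carrier SLC7A11 fell by 1.40, 0.91 and 0.92. Heat shock chaperones had 4 of 23 higher and 8 lower (median -0.01, 0.08 on rescaling), among them the small chaperone CRYAB with 20.8, 18.8 and 18.7 in October, against 84.95, 76.4 and 67.7 in June (-1.92 (SE 0.08)), HSPB6 (-0.76), HSPA2 (9.27 in October and 19.4 in June) and, higher, the constitutive HSPA8 (0.29). Serine and one-carbon genes had 8 of 24 higher and 9 lower; besides SHMT1, the carrier SLC1A4 averaged 23.6 in October and 49.5 in June (-1.04), CTH differed by -0.42 and the glycine cleavage enzyme AMT by 0.79.

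Genes tied to season and time of day moved in part. Of 20 hormone receptor and steroid genes, 3 were higher and 9 lower (median -0.11): the progesterone receptor PGR had 2.57, 1.95 and 2.36 in October, against 6.65, 5.44 and 5.56 in June (-1.06 (SE 0.09)), the leptin receptor LEPR averaged 0.23 in October and 0.95 in June (-0.66), and of the steroid reductases SRD5A1 averaged 9.56 in October and 6.44 in June (0.52) and SRD5A3 11.7 in October and 23.2 in June (-0.93). Of 19 clock genes, 5 were higher and 9 lower (median -0.11); the 5 became 3 without the second June library or the first or the third October library and 8 on rescaling. CLOCK, a core activator, had 10.6, 11.2 and 10.7 in October, against 23.2, 22.3 and 22.1 in June (-0.99 (SE 0.08)), the repressor CRY1 9.81, 9.80 and 9.86 in October, against 6.45, 5.42 and 6.79 in June (0.59 (SE 0.09)), and the output factor DBP averaged 19.8 in October and 30.7 in June (-0.61). RORA, a nuclear receptor of the clock, averaged 5.03 in October and 7.21 in June (-0.44), and its relative RORB 0.12 in October and 2.23 in June (-1.53). No source used here gives the time of day at which cells were taken. Of 7 tested neuropeptides, 3 rose and 2 fell: SCT, the secretin precursor, had 5.67, 3.88 and 6.49 in October, against 0.51, 1.60 and 0.47 in June (1.80 (SE 0.30)), and NMU, neuromedin U, was listed at 0 in all 3 October libraries, against 4.75, 2.97 and 3.46 in June (adjusted p = 3.41e-10).

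Markers of other cell types moved as well, some at levels near 0 and some well above it. Among 20 markers of keratinocytes and hair matrix, 11 rose and 1 fell (median 0.22), with 7 higher at a pseudocount of 0.1. KRT14, a keratin of basal keratinocytes, had 28.1, 30.4 and 28.7 in October, against 7.00, 6.78 and 7.55 in June (1.89 (SE 0.10)) and its partner KRT5 26.7, 28.2 and 28.9 in October, against 15.9, 20.3 and 20.6 in June (0.55 (SE 0.09)), while KRT1, KRT35 and GRHL2 were at 0 or under 0.1 in both months. LAMB3 and ITGB4, parts of the epithelial anchoring complex, rose by 1.12 and 0.75, and JUP, plakoglobin, which mesenchymal cells also express, fell, with 11.4, 10.98 and 11.99 in October, against 44.8, 44.9 and 42.5 in June (-1.85 (SE 0.07)). On the log2 scale the rise of KRT14 was larger in primary females (3.05) and secondary males (3.33), both tests of the difference called. Those rises began near 0: KRT14 averaged 9.98 in October and 0.32 in June in primary females. In secondary males the means were 10.6 and 0.14, against 29.1 and 7.11 in primary males. Of 8 pericyte markers with a row, 4 were tested, and all 4 were called lower, the fourth only weakly. RGS5, KCNJ8, ABCC9 and HIGD1B did not reach the level for testing, and KCNJ8 was at 0 or under 0.1 in both months. PDGFRB averaged 59.3 in October and 84.3 in June (-0.50), NOTCH3 23.7 and 35.6 (-0.56) and CSPG4 46.0 and 62.0 (-0.42). The fourth, MCAM (-0.26, adjusted p = 0.0477), averaged 1.01 in October and 1.40 in June. It lost its call without any 1 of 5 libraries, all but the second June library, and when libraries were rescaled to the same total. The call was also lost with 6 libraries in the filter, a pseudocount of 0.1, median-of-ratios factors, no robust estimation or the replicate block. The 13 endothelial markers summed to 10.1 to 11.6 in October and 20.8 to 21.7 in June, nearly all of it EGFL7, with CDH5, KDR, CLDN5 and 5 more at 0 or under 0.1 in both months, and the melanocyte genes TYR, TYRP1, DCT and MLANA were at 0 or under 0.1.

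The last question is how far the October against June difference of primary males is their own. It was tested against the same difference in primary females, the other sex, and in secondary follicles of males, the other follicle type. In these tests, sex or follicle type cannot be told apart from the animals, cultures or collection of each group. The differences in primary females and in secondary males share no library with the 6 described so far. Primary females had 6295 genes called between the months (48.2%, with 22.7% higher and 25.6% lower) and secondary males 7378 (56.5%, with 25.3% higher and 31.2% lower). Of the calls in primary males, 3434 (47.4%, and 54.6% of those in primary females) went the same way in primary females and 794 the opposite way. In secondary males 3628 (50.1% of the calls in primary males, 49.2% of those in secondary males) went the same way and 1116 the opposite way. The difference itself differed from that of primary females in 4799 genes (36.8%), 2311 more positive (17.7%) and 2488 more negative (19.1%) in primary males, and from that of secondary males in 5730 genes (43.9%), 2909 more positive (22.3%) and 2821 more negative (21.6%). With libraries rescaled to the same total, the split against primary females became 2880 more positive and 1863 more negative, and that against secondary males 4930 and 1556, with the median of all genes at 0.17 in place of 0.01; list medians against secondary males are best read relative to that shift.

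Cell division genes went the opposite way in secondary males. The mitosis list had medians of 0.62 in primary males, 0.65 in primary females and -0.88 in secondary males, where 39 of 40 genes were called lower, and the test against secondary males called all 40 genes more positive, also after rescaling. CDC20 differed by 1.04 in primary males, 1.04 in primary females and -0.94 in secondary males. Replication genes had 36 of 39 more positive than in secondary males (38 after rescaling). The libraries labelled secondary October male are those that resembled primary cells in SOX2.

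Collagens, interferon genes, and glycolysis and hypoxia genes differed from primary females. Collagens had a median of 0.37 in primary males and -0.41 in primary females, with 15 of 24 more positive and 5 more negative in males by test. The interferon list, lower in primary males, had a median of 0.00 in primary females, and 20 of 35 genes were more negative in males. In secondary males this list fell further, with a median of -0.56 and 27 genes lower. Against them, 13 genes were more positive and 2 more negative in primary males. Glycolysis and hypoxia genes had 29 of 39 more positive than in primary females, where limma called 0 higher and 26 lower (2 and 28 at an unadjusted p under 0.05).

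Sheath and smooth muscle markers differed from both groups. Lower in primary males, they had medians of 0.09 in primary females and 0.03 in secondary males, and by test 12 and 14 of the 17 genes were more negative in primary males than in these groups (12 and 13 after rescaling). The insulin-like growth factor axis had 15 of 18 genes more negative than in secondary males (13 after rescaling) and 6 more positive and 6 more negative than in primary females. Lysosome and antioxidant genes were lower in all 3 groups, with medians of -0.35, -0.28 and -0.58 for lysosome genes and -0.39, -0.29 and -0.63 for antioxidant genes in primary males, primary females and secondary males.

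**Figure D5:**
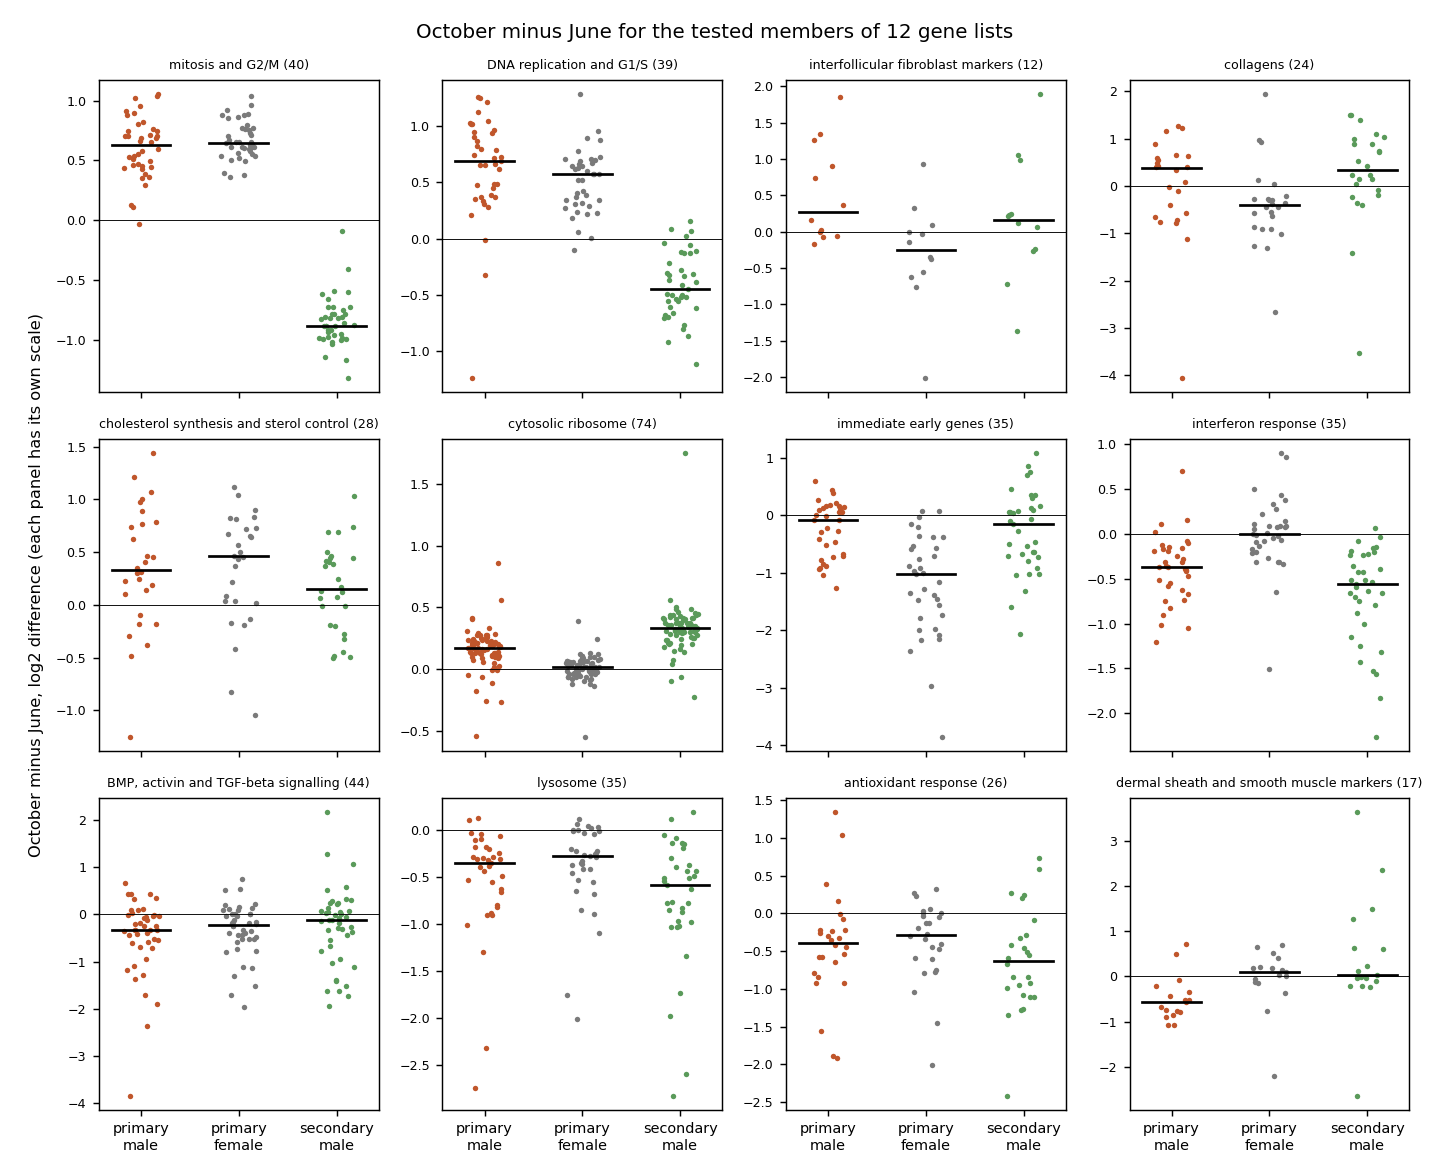
October minus June log2 differences of the tested members of 12 gene lists (number in brackets) in primary males, primary females and secondary males, 1 point per gene with a line at the median. Mitosis genes have medians of 0.62, 0.65 and -0.88 in the 3 groups, and immediate early genes of -0.08, -1.02 and -0.15, the first of which turns to 0.0040 when libraries are rescaled to the same total.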

How the data were processed

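Papilla cell RNA was sequenced in 24 libraries, 3 in each of 8 groups of follicle type, month and sex. RNAiso Plus served for extraction and an NEBNext Ultra kit for paired-end libraries, per the labels' protocols. The tools kallisto 0.46.1 (transcript quantification) and sleuth 0.30.0 (analysis of its output) are named, per the submitters' processing notes. Build, transcript set, filters and depth: not given in the sources used here. What the authors deposited is a normalised expression signal per gene on a scale they do not state. It is not a count, so no counting interval or floor is printed, and 3 libraries per group limit the precision. Of 20326 gene IDs, 20294 were found in the ARS1.2 gene table, 20288 under the same symbol; the table served for names only.

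The filter kept the 13049 genes that reached 1 in 3 of the 24 libraries and left 7277 untested. On log2(value + 1), limma (version 3.58.1, in R 4.3.3 with statmod 1.5.0) estimated the 8 group means over all 24 libraries, with a variance trend and robust estimation. Comparisons were October against June in primary males, and that difference minus the one in primary females or in secondary males, with Benjamini-Hochberg adjustment over all genes. The mitochondrial share was compared by an exact permutation test. The fit was tested on simulated data. Gene lists are described by counts and medians, beside those of all genes. Lists, members and the naming rule were chosen with earlier results of these data known.

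The rule named 238 genes: the 15 largest rises and falls among called genes with a symbol and a mean of 5 or more in October or June; up to 4 called members of a list with 3 or more calls, by p; marker genes by level; genes often studied in papilla cells; X-linked genes; and the 6 highest and 6 lowest differences against each other group. Each result was computed again without a filter, with 6 libraries in it, with a pseudocount of 0.1, median-of-ratios factors or a common total of 1e+06, without robust estimation, with the compared libraries alone, with the replicate number as a block, with a fold of at least 2, and without each library. Promoter and protein sequences were not used here.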

Additional observations from a re-analysis of the deposited data

Results flagged for a closer look

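The October against June difference of primary males differed by test from that of primary females in 4799 genes and from that of secondary males in 5730 genes (limma, adjusted p under 0.05). Groups of 3 libraries were not searched for single libraries that stand apart.

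Against primary females, the highest values of this test, as a difference of 2 log2 differences, were those of MGP (5.55), ABI3BP (5.42), RARRES1 (4.50), APOD (4.11), GMFG (4.11) and ACTN2 (3.95). RARRES1, a membrane protein induced by retinoids, and GMFG, a regulator of actin branching, did not pass the test in primary males (0.16 and 0.30) and fell in primary females (-4.34 and -3.81). Without the second June library GMFG was called in primary males (0.49, adjusted p = 0.0222). ACTN2, a sarcomere actinin, rose in primary males (1.09) and fell in primary females (-2.86). The lowest values were those of the potassium channel KCNJ5 (-4.53), the actin-binding SORBS2 (-4.30), the chemokine CCL17 (-3.72), the proteoglycan SRGN (-3.66), SBSPON (-3.57) and PARM1 (-3.35). SRGN had 82.1, 77.5 and 70.8 in October, against 357, 393 and 363 in June in primary males (-2.26) and differed by 1.40 in primary females.

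Against secondary males, the highest values were those of MGP (5.24), the heat shock gene HSPA6 (4.65), the EGF receptor ligand EREG (4.10), the secretin precursor SCT (3.97), the cytokine IL6 (3.95) and the metalloproteinase MMP12 (3.93). EREG and MMP12 did not pass the test in primary males (0.00 and 0.02) and fell in secondary males (-4.10 and -3.91). The lowest were those of SBSPON (-4.11), the protocadherin PCDH7 (-3.92), the desmin gene DES (-3.84), KRT5 (-3.70), the growth factor IGF2 (-3.46) and the ubiquitin hydrolase UCHL1 (-3.38). Secondary October males were the group whose SOX2 level resembled that of primary cells.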

How the results depend on the processing

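The number of genes called between October and June in primary males was 7241, and over the filters, the pseudocount, the spread estimate, the scalings and the compared libraries alone it ran from 7077 to 7927. Asking for a fold of at least 2 as well left 670 genes, 172 higher and 498 lower. With a common total of 1e+06, the calls against secondary males became 4930 more positive and 1556 more negative. Leaving out 1 library gave 6489 to 6717 calls in primary males (2970 to 3129 higher, 3517 to 3588 lower), 4286 to 5024 against primary females (2047 to 2390 and 2239 to 2634) and 5172 to 5569 against secondary males (2611 to 2845 and 2561 to 2724). The difference in mitochondrial share ran from 0.0984 to 0.392 percentage points.

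Of named genes, EREG changed sign without the second June library (-0.018), the third June library (-0.074), the first October library (-0.051) or the third October library (-0.010), and MMP12 without the third June library (-0.020) or the second October library (-0.019), neither being called in any. Over all single libraries left out, EREG ran from -0.074 to 0.10 and MMP12 from -0.020 to 0.082. The cause was not tested. With a common total, EIF2S3 and USP9X lost their calls and KDM5C and EIF1AX gained one, and the calls higher became 8 of integrins, 7 of heat shock chaperones and 6 of the contractile list. USP9X also lost its call without 1 of 2 libraries.

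Replicate numbers did not pair the October and June libraries of primary males: deviations of libraries of the same number correlated at -0.022, -0.065 and -0.020, and 0 of 3 matched its own number best. The correlations were -0.084, 0.294 and 0.211 in primary females, where 2 of 3 matched best, and -0.191, -0.110 and -0.0047 in secondary males, where 0 of 3 did. With the replicate number as a block, 7327 genes were called in primary males (3439 higher, 3888 lower), 4921 against primary females and 5809 against secondary males. The depth of the libraries is unknown, so how far it limits weakly expressed genes cannot be given.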
